A study of Arabidopsis thaliana with 8 samples.

Results

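The expansin superfamily of Arabidopsis thaliana was followed in stems of the nst1 nst3 double mutant with and without an activator transgene. The members were 34 loci taken from the family's published nomenclature: 25 alpha expansins (EXPA1 to EXPA18 and EXPA20 to EXPA26), 5 beta expansins (EXPB1 to EXPB5) and 4 expansin-like genes (EXLA1, EXLA2, EXLA3 and EXLB1). A member was found on the array through the RefSeq transcript that its probe was designed to, a rule that uses names only. Probes matched 33 of the 34 members, among 25410 loci matched in all; EXPB5 was not analysed here. Of the 33, 19 entered the test because their signal was well above background on 4 or more of the 8 arrays, namely 13 alpha expansins, 2 beta expansins and all 4 expansin-like genes.

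Expansins are small secreted proteins that loosen the plant cell wall without cutting its polymers. They work best at acid pH and let cellulose microfibrils slip past the matrix that ties them together, so that a growing cell can yield to its own turgor. Alpha expansins are thought to act where cellulose meets xyloglucan in primary walls, and beta expansins are best known from grasses, where they act on glucuronoarabinoxylan. The expansin-like A and B proteins share the family's double domain, but wall-loosening activity is not established for them.

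The arrays were single-colour Agilent arrays hybridised with Cy3-labelled RNA from stems 10 cm long of Col0 plants kept at 23 °C with 16 h of light; plant age is not stated in the labels. The 4 control arrays carried RNA of the genotype nst1-1 nst3-1, which is without functional NST1 and NST3, the NAC factors that turn on fiber secondary walls. The 4 transgenic arrays carried RNA of NST3pro:CEF2-VP16:HSP in the nst1-1 nst3-1 background, the same double mutant with an AP2/ERF factor fused to the viral VP16 activation domain and driven by the NST3 promoter, whose activity in stems is known mainly from fibers. The series title asks about thickened primary walls in the fibers of this mutant, and the comparison is between these genotypes. The labels call the factor CEF2, the design text calls it ERF035, and neither gives the number of transgenic lines. Nor do the labels say whether replicates were separate plants, so the p-values measure the spread between these samples only, which may be technical. RNA came from whole stems, so that fewer cells of a type and less RNA per cell cannot be told apart.

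Levels are given as the log2 of a probe's processed signal over the 75th percentile of its array, called the log2 level, with a floor at -6.64. A log2 difference is always transgenic minus control. Levels of different probes are not comparable with each other, so differences are read within a gene, and sums over markers only between arrays. The 75th percentile itself lay between 2344 and 3642 signal units, and each array had 30289 to 32382 of 43603 probes well above background. All control arrays lay on 1 slide and all transgenic arrays on another, and slide and genotype cannot be told apart. ERF035 (AT3G60490) read -3.07, -2.38, -5.87 and -2.99 in the controls and 4.06, 4.05, 4.17 and 4.27 in the transgenic stems. Its log2 difference was 7.72 ± 0.68 (SE, n = 4 per group; limma adjusted p = 0.000114), and those of NST1 and NST3, -0.53 and -0.52, did not pass (adjusted p = 0.102 and 0.0760). Both passed with arrays scaled on spiked-in control RNA, at -0.97 and -0.96. NST3 also passed after normexp background correction (0.0405), with the replicate block (0.0449) and when control array 1 was left out (0.0204). Leaving out transgenic array 2 brought NST1 past the threshold (0.0310). Exact permutation of the genotype labels (two-sided, 70 assignments) gave p = 0.0286 for ERF035, the smallest possible, 0.143 for NST1 and 0.0857 for NST3.

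The classes of the superfamily went different ways in the transgenic stems. Of the 13 tested alpha expansins 10 were higher and 1 was lower, and both tested beta expansins were higher. Of the 4 expansin-like genes 3 were lower. A gene was called at a Benjamini-Hochberg adjusted p under 0.05 in limma over 19609 genes, and by this rule 29.5% of all genes were higher and 24.8% lower. With spike-in scaling the split over all genes was 2104 higher and 7843 lower, against 5776 and 4858. Every called member differed at least 2-fold, which 10.7% of all genes did upward and 10.5% downward. The median log2 difference was 2.47 for the alpha expansins, 3.78 for the beta pair and -1.84 for the expansin-like genes, beside 0.03 over all genes. Each of the 19 was above background on at least 3 arrays of either group, so no member entered the test through a single genotype.

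**Figure D1:**
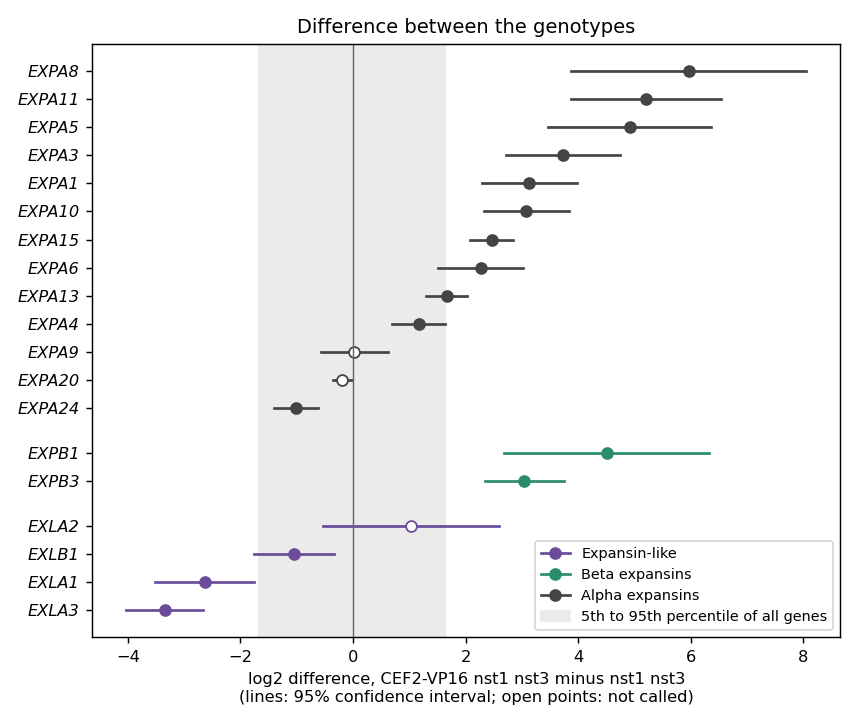
Log2 difference (transgenic minus control) of each tested expansin on the horizontal axis, with its 95% confidence interval, grouped by class; filled points passed the test. The grey band spans the 5th to 95th percentile of all 19609 genes, -1.68 to 1.64, and 9 of the 13 alpha expansins and both beta expansins lie to its right, while EXLA1 and EXLA3 lie to its left.

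The largest rises were in EXPA8, EXPA11 and EXPA5, alpha expansins known from growing tissue. EXPA8 (AT2G40610) had log2 levels of -5.26, -1.20, -5.75 and -3.31 in the controls (arrays 1 to 4, in that order throughout) and 2.46, 2.04, 1.99 and 1.84 in the transgenic stems. The transgenic arrays lay close together, whereas the control arrays spread widely, with array 2 highest and still 3.04 log2 units under the lowest transgenic array. The log2 difference was 5.96 ± 0.91 (SE, n = 4 per group; 62.4-fold; limma adjusted p = 0.00106). Of the 19609 genes 13, EXPA8 included, rose by at least as much. Without control array 2 it was 6.86, without control array 3 it was 5.34, and with the gene's probes averaged it was 5.21.

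EXPA11 (AT1G20190) read -5.56, -2.94, -5.88 and -5.00 in the controls and 0.54, 0.37, 0.14 and 0.40 in the transgenic stems. Again control array 2 was the nearest, at 3.08 log2 units below the lowest transgenic value. Its log2 difference was 5.21 ± 0.58 (37.0-fold; adjusted p = 0.000273), or 5.84 without control array 2 and 4.49 after normexp background correction. EXPA5 (AT3G29030), known to act downstream of brassinosteroid signalling in growth, read -4.57, -1.60, -4.61 and -3.48 against 1.70, 0.99, 1.24 and 1.46. The groups did not overlap, and the log2 difference was 4.91 ± 0.63 (30.1-fold; adjusted p = 0.000483), or 5.57 without control array 2.

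**Figure D2:**
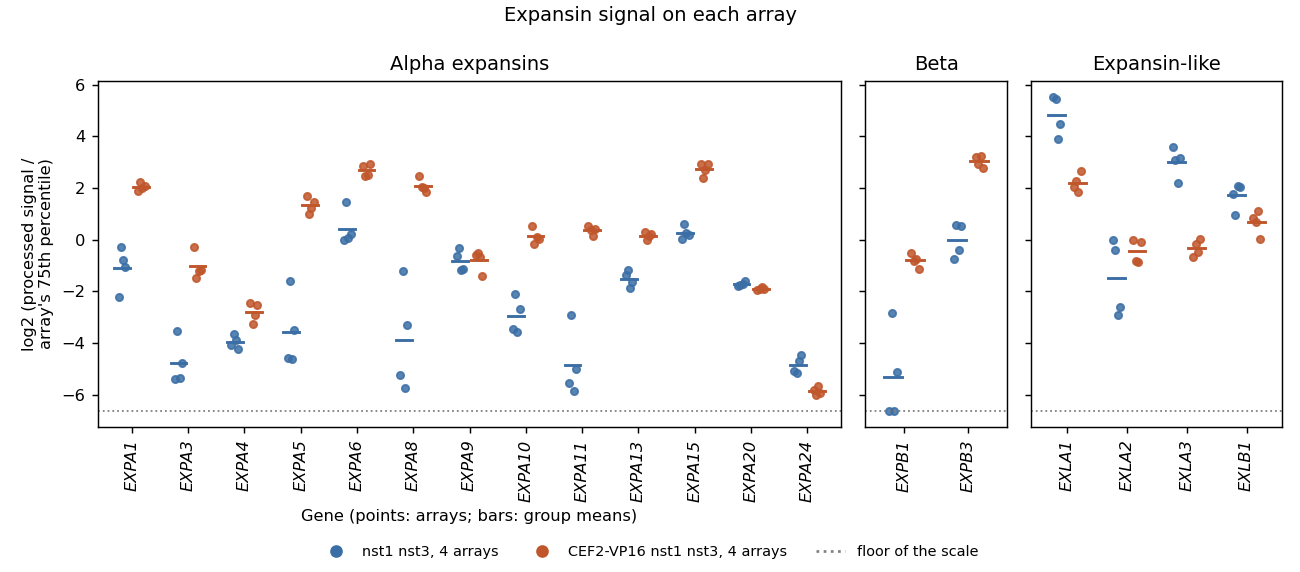
Log2 level of each tested expansin on each array (vertical axis), by class, with controls in blue, transgenic arrays in orange, bars for group means and a dotted line at the floor of the scale. In EXPA8 the control arrays run from -5.75 to -1.20 and the transgenic arrays from 1.84 to 2.46; levels of different genes come from different probes and are not to be compared.

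EXPA3, EXPA1 and EXPA10 came next among the alpha expansins, with rises of 8.47-fold to 13.3-fold. EXPA3 (AT2G37640) read -5.39, -3.54, -5.35 and -4.80 in the controls and -0.28, -1.48, -1.22 and -1.17 in the transgenic stems, a log2 difference of 3.73 ± 0.44 (13.3-fold; limma adjusted p = 0.000339), or 2.87 after normexp correction. EXPA1 (AT1G69530), known for its part in guard cell walls during stomatal opening, read -2.22, -0.29, -0.78 and -1.04 against 1.87, 2.24, 2.02 and 2.08. It differed by 3.13 ± 0.37 (8.78-fold; adjusted p = 0.000329), with 2.16 log2 units between the nearest arrays of the groups. EXPA10 (AT1G26770), which acts in leaf and petiole growth, read -3.46, -2.10, -3.59 and -2.68 against 0.51, -0.15, 0.09 and 0.04. Its log2 difference was 3.08 ± 0.33 (8.47-fold; adjusted p = 0.000232). In all 3 genes the groups stood apart and control array 2 was the highest control.

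The other 4 alpha expansins that rose, EXPA15, EXPA6, EXPA13 and EXPA4, did so by 2.25-fold to 5.53-fold. EXPA15 (AT2G03090) read 0.02, 0.60, 0.26 and 0.19 in the controls and 2.93, 2.38, 2.70 and 2.92 in the transgenic stems. Its log2 difference of 2.47 ± 0.17 (5.53-fold) had the lowest adjusted p of the superfamily, 5.01e-05. EXPA6 (AT2G28950) read -0.02, 1.47, 0.06 and 0.20 against 2.87, 2.47, 2.51 and 2.94, so that only control array 2 came near the transgenic range. It differed by 2.27 ± 0.33 (4.82-fold; limma adjusted p = 0.000817).

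EXPA13 (AT3G03220) read -1.37, -1.16, -1.86 and -1.64 in the controls and 0.31, -0.02, 0.14 and 0.20 in the transgenic stems, a log2 difference of 1.67 ± 0.16 (3.17-fold; limma adjusted p = 0.000143). EXPA4 (AT2G39700) was the least changed of the 10, with -4.10, -3.67, -3.88 and -4.22 against -2.47, -3.29, -2.90 and -2.53. Its groups were 0.39 log2 units apart at the nearest arrays, and the log2 difference was 1.17 ± 0.20 (2.25-fold; adjusted p = 0.00198), or 0.73 with spike-in scaling (adjusted p = 0.0347).

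EXPA9, EXPA20 and EXPA24 were the tested alpha expansins not called higher. EXPA9 (AT5G02260) read -0.65, -0.34, -1.18 and -1.15 in the controls and -0.61, -0.52, -0.66 and -1.42 in the transgenic stems. The groups lay over each other, and the log2 difference was 0.03 with a 95% confidence interval of -0.58 to 0.63 (limma adjusted p = 0.943). The interval reaches no rise of the size seen in the 10 risen members. EXPA20 (AT4G38210) read -1.81, -1.77, -1.73 and -1.60 against -1.96, -1.92, -1.85 and -1.92. That difference of -0.19 (interval -0.36 to -0.01) did not pass at an adjusted p of 0.0676, although the arrays did not overlap; with spike-in scaling it was -0.63 and passed (adjusted p = 0.0149).

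EXPA24 (AT5G39310) was the only alpha expansin called lower. Its log2 level was -5.09, -5.18, -4.70 and -4.47 in the controls and -5.82, -6.03, -5.66 and -5.95 in the transgenic stems, where 3 of 4 arrays were above background. The log2 difference was -1.01 ± 0.17 (2.01-fold; limma adjusted p = 0.00179), and -0.32 after another background correction. By the gene order of assembly TAIR10.1 it stands at the end of a run of 6 neighbouring alpha expansin genes on chromosome 5, EXPA21 to EXPA26, with no other coding gene between them. The probes of the other 5 were above background on no array. Whether these genes are alike enough to share probe signal was not examined, so the assignment to EXPA24 is uncertain.

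The other alpha expansins had a probe but too little signal for the test. Of 12 such genes, 9 were above background on no array: EXPA2, EXPA7, EXPA12, EXPA18, EXPA21, EXPA22, EXPA23, EXPA25 and EXPA26. EXPA2 is known from germinating seeds, and EXPA7 and EXPA18 belong to growing root hairs. Of the 5 root hair markers RSL4 and COW1 were above background on no array and LRX1 on 1 control array. The others, RHD6 and PRP3, were detected on 7 and 6 arrays and called higher, close to the floor. The summed signal of the 5 root hair markers was 0.05 to 0.0660 of the 75th percentile on control arrays and 0.0627 to 0.0736 on transgenic arrays. Each marker at the floor adds 0.01 to this sum, so that 0.05 means all 5 were at the floor. RSL4, LRX1 and COW1 were at the floor on every array.

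EXPA14, EXPA16 and EXPA17 were detected on a few arrays. EXPA14 (AT5G56320), expressed in developing lateral roots, was above background on 3 transgenic arrays and on no control array, with log2 levels of -6.12, -5.92, -6.02 and -6.51 against the floor on every control array. Its measured means were -6.15 and -6.64, a ratio of at least 1.41-fold. EXPA16 (AT3G55500) was above background on 1 transgenic array, and EXPA17 (AT4G01630), another gene of lateral root formation, on 2 control arrays, with no level of EXPA17 above the floor.

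Both tested beta expansins rose. EXPB1 (AT2G20750) read -6.64, -2.83, -6.64 and -5.14 in the controls, with arrays 1 and 3 at the floor and 3 of 4 arrays above background, and -0.52, -0.83, -0.73 and -1.14 in the transgenic stems. The log2 difference was 4.51 ± 0.79 (22.8-fold; limma adjusted p = 0.00205), or 5.34 without control array 2 and 3.36 after normexp background correction. EXPB3 (AT4G28250) read -0.74, 0.58, -0.38 and 0.52 against 3.20, 2.94, 3.26 and 2.78, and its groups lay 2.19 log2 units apart. It differed by 3.05 ± 0.31 (8.27-fold; adjusted p = 0.000191). EXPB2 and EXPB4 were above background on no array.

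Of the expansin-like genes EXLA3, EXLA1 and EXLB1 were called lower, and EXLA2 was not called. EXLA3 (AT3G45960) fell furthest, from log2 levels of 3.60, 3.096, 2.19 and 3.18 in the controls to -0.67, -0.16, -0.49 and 0.01 in the transgenic stems. From the lowest control array to the highest transgenic array the level fell by 2.17 log2 units. The log2 difference was -3.34 ± 0.30 (10.1-fold; limma adjusted p = 0.000115), and 206 of the 19609 genes, EXLA3 included, fell by at least as much. EXLA1 (AT3G45970), the next coding gene on chromosome 3, read 5.54, 5.45, 3.89 and 4.47 against 2.02, 2.29, 1.84 and 2.67. It differed by -2.63 ± 0.38 (6.20-fold; adjusted p = 0.000854). In both genes control array 3 was the lowest control, as it was for 46.1% of all genes called at least 2-fold lower.

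EXLB1 (AT4G17030), the single expansin-like B gene, read 1.76, 0.96, 2.09 and 2.04 in the controls and 0.83, 0.70, 1.13 and 0.01 in the transgenic stems. Its groups overlapped through control array 2, and the log2 difference of -1.05 ± 0.31 (2.07-fold) passed at a limma adjusted p of 0.0218. The call was lost without control array 1, 3 or 4, at adjusted p values of 0.0514, 0.0517 and 0.0587, with the authors' values (0.0542) and with no filter on dim probes (0.0504). EXLA2 (AT4G38400), known from responses to fungal infection, read 0.00, -0.39, -2.92 and -2.60 in the controls and -0.03, -0.82, -0.85 and -0.08 in the transgenic stems. Control arrays 1 and 2 sat within the transgenic range or above it, and arrays 3 and 4 below it. The log2 difference of 1.03 had an interval of -0.53 to 2.60 (adjusted p = 0.230), which covers both no change and a rise like that of EXPA6. A difference between EXLA2 and its relatives was not tested.

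Control and transgenic arrays were fully apart for 16 of the 19 tested members. These were EXPA20, which was not called, and 15 of the 16 called members, EXLB1 being the exception. The calls were made on these same arrays, so the count among called members is no separate support. Of all genes 50.7% had groups that did not overlap, 27.9% with the transgenic arrays higher and 22.7% with them lower. Several probes of a gene gave the same direction in 7 of the 8 members with more than 1 usable probe. The second probes read -2.55 for EXLA1, -2.72 for EXLA3, -1.01 for EXLB1, 2.92 for EXPA10, 3.93 for EXPA3 and 3.99 for EXPA5 in log2 difference. EXPA8 had 3 probes, with differences of 5.96, 6.10 and 3.56. The probes of EXPA20 disagreed: the second read 0.48 and passed among all probes (limma adjusted p = 0.0141), against -0.19 for the brighter probe that stood for the gene, so no direction is given for EXPA20.

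**Figure D3:**
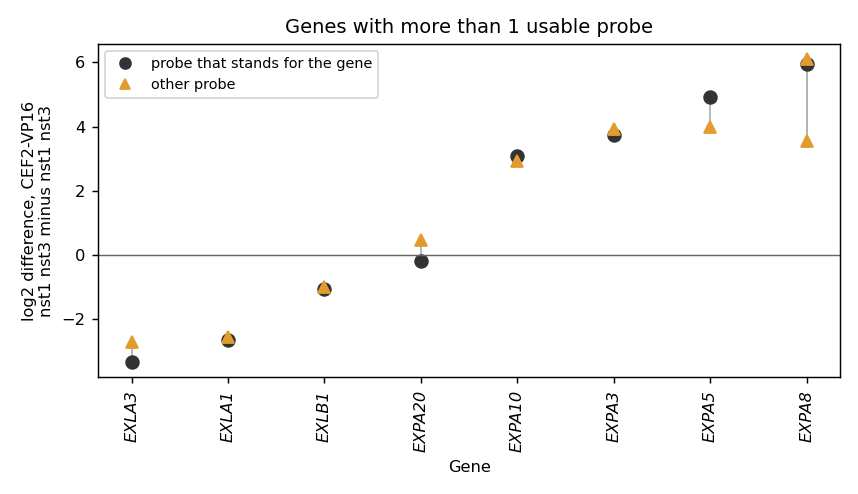
Log2 difference (transgenic minus control, vertical axis) of every usable probe for the 8 expansins with more than 1; circles are the probes that stand for the gene and triangles the others. Probes lie on the same side of 0 in 7 genes, and in EXPA20 at -0.19 and 0.48.

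The control arrays were less alike than the transgenic arrays, and the expansins show it. For the 12 members called higher, the median log2 level was -3.78, -1.40, -3.73 and -3.00 on control arrays 1 to 4 and between 0.68 and 1.12 on the transgenic arrays. Control array 2 held the highest control value for 12 of these 12 members. It did so for 70.5% of all genes called at least 2-fold higher and for 29.7% of all genes tested. The SD was larger among controls than among transgenic arrays in 16 of the 19 members (84.2%), beside 73.3% of all genes and 83.9% of those called at least 2-fold higher. Over all genes the controls correlated at r = 0.953 to 0.987 and the transgenic arrays at 0.987 to 0.994, across genes, which are not independent replicates. Without control arrays 2 and 3, the counts were again 10 higher and 1 lower among alpha expansins, 2 higher among beta expansins and 3 lower among expansin-like genes. The class medians were then 2.63, 4.12 and -2.02.

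**Figure D4:**
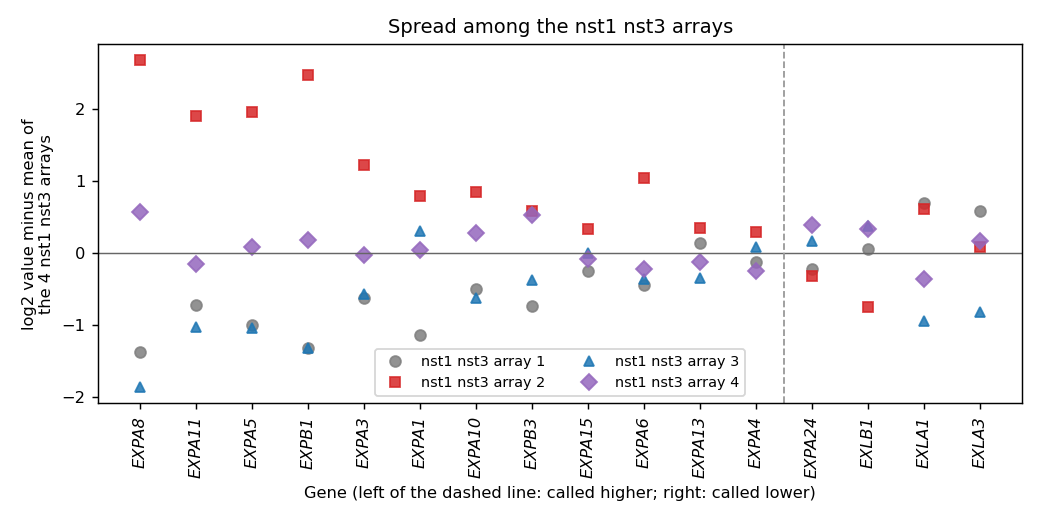
Log2 level of each control array minus the mean of the 4 control arrays (vertical axis), for the 16 called expansins ordered by their difference between genotypes; the dashed line parts those called higher (left) from those called lower. Red squares, control array 2, are the highest control for each of the 12 members on the left.

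Expansin action depends on an acid wall, which plasma membrane H+-ATPases provide by pumping protons outward; type 2C phosphatases of clade D (PP2C.D) inactivate these pumps. Of 11 H+-ATPase genes 1 was higher and 6 lower (29.5% and 24.8% of all genes), with a median log2 difference of -0.37. Whether each of the 11 acts at the plasma membrane was not examined. With spike-in scaling 0 were higher and 7 lower in limma (0 and 8 at an unadjusted p under 0.05). The same scaling called 2104 of all 19609 genes higher and 7843 lower. AHA2 (AT4G30190), a main pump of growing tissue, was higher by 0.68 ± 0.13 (limma adjusted p = 0.00365), but by 0.24 with spike-in scaling, where it did not pass (0.413). AHA4 (AT3G47950), AHA7 (AT3G60330) and AHA8 (AT3G42640) were at least 2-fold lower, at -2.61 ± 0.87, -1.16 ± 0.10 and -1.22 ± 0.11 (adjusted p = 0.0343, 0.000113 and 0.000142). The call of AHA4 was lost in 9 of 20 alternatives, among them every fit without 1 array other than control array 2. That array read -3.59, inside the transgenic range of -4.00 to -2.82, and without it the difference was -3.56. AHA6, near the floor, counts among the 6 although it was above background on 4 control arrays and no transgenic array, so its value is a bound only. The AHA6 call was lost in 6 of 19 alternatives (-0.10 and adjusted p = 0.514 after normexp correction), and without AHA6 the count was 5 lower of 10. AHA1 (AT2G18960) read -0.37 and passed at 0.0127, and this was lost with the authors' values (0.212) and with the replicate block (0.0537). AHA5 (AT2G24520) read -0.33 and passed at 0.0171, and its call was lost in 3 of 20 alternatives, the authors' values among them (0.276). Only AHA7 and AHA8 kept their lower calls in every alternative.

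Of 9 PP2C.D genes 3 were higher and 3 lower, near the shares of all genes, with a median log2 difference of 0.04. With spike-in scaling the split was 1 higher and 4 lower, beside 2104 higher and 7843 lower of all 19609 genes. PP2C.D1 (AT5G02760) rose by 2.66 ± 0.68 (limma adjusted p = 0.0118), or by 3.36 without control array 2 and 1.80 after normexp correction. PP2C.D8 (AT4G33920), PP2C.D9 (AT5G06750) and PP2C.D4 (AT3G55050) fell by 2.88 ± 0.32, 1.75 ± 0.27 and 1.13 ± 0.15 (adjusted p = 0.000285, 0.00111 and 0.000657). The smaller rises of PP2C.D2 and PP2C.D5, 0.52 and 0.69, were lost with spike-in scaling (adjusted p = 0.711 and 0.371), where PP2C.D6 was called lower (-0.59; adjusted p = 0.0204).

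**Figure D5:**
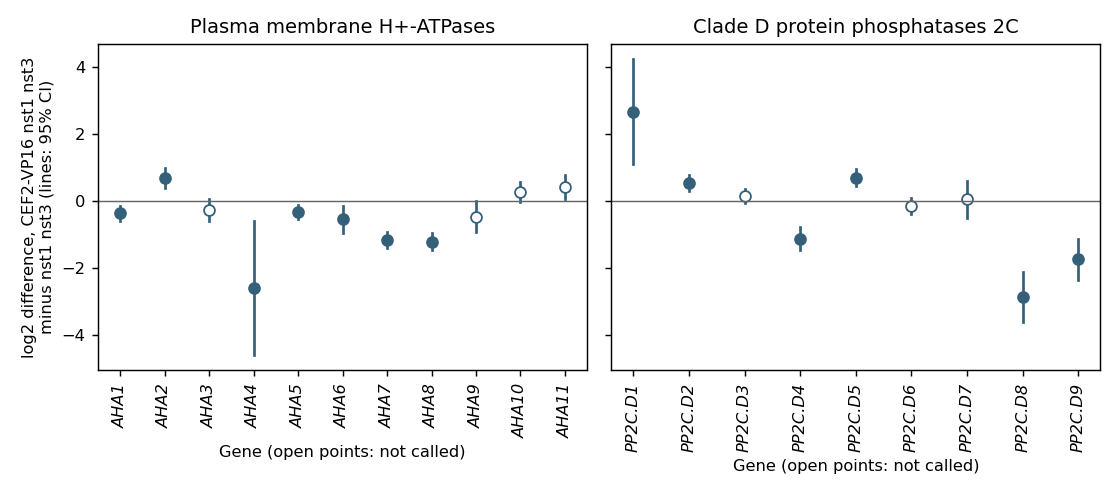
Log2 difference (transgenic minus control, vertical axis) with 95% confidence interval for 11 H+-ATPase genes (left) and 9 PP2C.D phosphatase genes (right). Filled points passed the test. AHA4, AHA7 and AHA8 and PP2C.D4, PP2C.D8 and PP2C.D9 lie below -1, and PP2C.D1 lies at 2.66.

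Markers of the cell types of a stem were read beside the expansins. A sum over the markers of a list follows its brightest probes most. CER6 was the brightest epidermal marker (mean log2 level 3.92 in controls and 4.67 in transgenic stems), and XCP2 the brightest vessel marker (4.19 and 4.83). The summed signal, as a multiple of the 75th percentile, was 15.4 to 23.4 in the controls and 30.8 to 32.7 in the transgenic stems for 5 epidermal markers, of which 4 were higher (ATML1, PDF2, FDH and CER6, by 0.43 to 0.87 log2 units). For 3 cambium markers it was 1.66 to 2.09 against 4.07 to 5.42, with PXY, WOX4 and ANT higher by 1.01, 2.28 and 1.74. For 4 vessel markers it was 14.4 to 29.6 against 31.1 to 35.8, with XCP1, XCP2, VND7 and VND6 all higher (0.59 to 1.32). Most markers of these lists were higher, as were the 3 chlorenchyma markers, beside 29.5% of all genes. With spike-in scaling 0 of 5 epidermal, 2 of 4 vessel and 3 of 3 cambium markers were called higher, beside 2104 of all 19609 genes. The epidermal median was then 0.08, beside -0.40 over all genes and 2.03 for the alpha expansins. Without that scaling the epidermal median was 0.52, beside 0.03 over all genes. A part of these cell types in the rises of the expansins was not tested.

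The 5 guard cell markers summed to 3.09 to 7.34 against 3.66 to 4.75. KAT1 and HT1 were lower by 0.88 and 0.71 log2 units, and FAMA, MYB60 and GC1 were not called (-0.08, -0.26 and 0.29). A link between guard cells and the rise of EXPA1 was not tested. Of 3 phloem markers SEOR1 was higher and APL lower (18.1 to 18.3 against 16.6 to 21.0). The 3 chlorenchyma markers were higher by 0.45 to 0.82 (338 to 466 against 443 to 594), and of the 5 root hair markers RHD6 and PRP3, both close to the floor, were higher by 0.47 and 0.96. The call of LHCB1.3 was lost in 9 of 20 alternatives, that of PRP3 in 8 of 19 and that of XCP2 in 5 of 20. That of ATML1 was lost in 3 of 20, among them averaged probes (0.18, limma adjusted p = 0.181) and the authors' values (adjusted p = 0.0822). FDH also missed the threshold with the authors' values (adjusted p = 0.0634). With spike-in scaling ATML1 read -0.014, PDF2, FDH, CER6, XCP2, VND7, SEOR1, RHD6, PRP3 and the chlorenchyma markers no longer passed, and PXY, WOX4, ANT, XCP1 and VND6 still passed.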

How the data were processed

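RNA of 8 stem samples, 4 per genotype by their labels, was measured on 1 array each; 200 ng of RNA was labelled. The deposited intensity values are background-corrected signals on a linear scale, made with Agilent Feature Extraction 11.5.1.1 per the file headers (9.1.3.1 per the submitters' processing notes). The table deposited by the authors is on a natural log scale. Comparison with the scanner output showed each column to be ln(processed signal) less a fixed amount, 7.39 for controls and 7.15 for transgenic arrays, to within 0.0002; its column medians ran from -1.26 to -0.84. The basis of these amounts is unknown.

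Each signal was divided by the 75th percentile of 43603 non-control probes on its array, floored at 0.01 and log2-transformed. Control spots were left out, and so were outlier spots unless all spots of a probe were marked as outliers. Probes well above background on at least 4 arrays were kept, 34348 probes were named by RefSeq accession through a TAIR10.1 gene table, and the brightest probe stood for a gene. limma 3.58.1 (R 4.3.3; lmFit, eBayes, no covariates) compared the genotypes over 19609 genes with Benjamini-Hochberg adjustment; the fit was tested on simulated data. A bound set the brighter group's mean against the higher of the dim probe's signal and the lowest signal well above background. All members were to be reported, with every array's level for those called at least 2-fold; EXPA9, EXPA14, EXPA20, EXLA2 and the genes of other lists under 2-fold were added after their values were seen. Members and lists were chosen with earlier results of these data known. Planned protein and promoter features were not analysed here.

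Tried in turn were normexp correction on median signals (offset 50; mean signals had been planned), other scalings, the authors' values, other filters, a lower floor (0.001), averaged probes, trend and robust eBayes, the replicate block and leaving out arrays. Precision is limited by the 4 arrays per genotype.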

Additional observations from a re-analysis of the deposited data

Results flagged for a closer look

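Of the 38 sets of 4 arrays formed by the 19 tested expansins and both genotypes, 2 held an array far from its 3 companions by Dixon's test, about as many as chance gives (about 1 in 20). Control array 2 read 1.47 for EXPA6, against -0.02 to 0.20 on the other control arrays; without it the log2 difference of EXPA6 was 2.61. Transgenic array 4 read -1.42 for EXPA9, against -0.66 to -0.52 on the other transgenic arrays.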

How the results depend on the processing

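The 10 alpha expansins, 2 beta expansins and 2 expansin-like A genes called in the report kept their direction and stayed past the threshold in every alternative that tested them; EXLB1 missed it in 5 of 20. Scaling on the E1A spike-in probes, of which 8 of 10 were detected and differed by 0.38 to 0.50 log2 units (transgenic minus control), moved the median gene from 0.03 to -0.40. It gave 2 alpha expansins called lower, EXPA24 and, by its brighter probe alone, EXPA20, and 2104 higher and 7843 lower genes, and ATML1 read -0.014. The authors' values gave 2981 lower genes. With no filter on dim probes 2 alpha expansins were lower and 11 higher, and the alpha median fell to 0.00192 because undetected genes entered at the floor. Requiring detection on all arrays left 12 alpha expansins, 0 of them lower (limma; 1 at an unadjusted p under 0.05), and 1 beta expansin, which was higher. EXPA24 kept its call in 19 of 19 alternatives, from -1.45 to -0.32. Leaving out 1 array gave 4894 to 5914 higher and 4105 to 5434 lower genes, 10 higher alpha expansins each time and 2 to 3 lower expansin-like genes. Deviations of same-numbered arrays from their group means correlated at -0.04, -0.20, 0.16 and -0.40. Arrays with different numbers correlated at -0.21 to 0.38, so these values neither show nor exclude that replicates were paired. The replicate block gave 4715 higher and 3904 lower genes and the class counts of the report; it ended the calls of AHA1, AHA4, AHA5, APL and XCP2 and brought NST3 past the threshold (adjusted p = 0.0449). Signal near background limits EXPA14, EXPA16, EXPA17 and EXPA24.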
